A study of Mus musculus with 63 samples.

Results

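A set of 10 genes, listed as astrocyte factors that build, mature or remove synapses, was followed through cortical cells sorted from mice after a skin burn. The members were Thbs1, Thbs2, Thbs4, Sparc, Sparcl1, Gpc4, Gpc6, Chrdl1, Megf10 and Mertk, taken by symbol from tables of 56980 genes, so that 10 of 56980 genes are described, whatever their values. RNA-seq counts came from 4 cell populations of female C57BL/6J mice that were 12 weeks old when first housed for the study. The mice carried a non-severe burn of 7 to 8% of the body surface on the right flank, or were sham-injured, that is, shaved and handled alike without a burn, and cells were sorted 5 weeks later. All mice, sham included, had received AAV5-CaMKII-eGFP and AAV1-mDlx-mRuby2 in the motor cortex.

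From the motor cortex, cells positive for CaMKII-driven eGFP and cells positive for both eGFP and mDlx-driven mRuby2 were sorted. ACSA2-positive astrocytes and CD11b-positive microglia came from cortex caudal to it, so that the region differed between the virus-labelled and the antibody-labelled gates. Libraries that were kept numbered 9 burn and 8 sham for astrocytes, 8 burn and 7 sham for microglia, 4 burn and 6 sham for CaMKII positive cells, and 9 burn and 7 sham for double-positive cells. Each library held the cells of 1 mouse, from 17 mice in all. Library totals ran from 13346143 to 134703744 counts. The virus labels were driven by the CaMKII promoter and the mDlx enhancer, and what the sorted cells expressed is given below.

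Astrocytes instruct synapses with secreted and membrane-bound proteins. Thrombospondins and Sparcl1, also called hevin, promote the formation of excitatory synapses, Sparc counteracts Sparcl1, and the glypicans Gpc4 and Gpc6 and the BMP antagonist Chrdl1 act on AMPA receptors as synapses become active and mature. Megf10 and Mertk are receptors with which astrocytes engulf synaptic material, and Mertk is also a clearance receptor of microglia and other macrophages.

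Promoter sequence was at hand for 5 of the 10 members, and 4 are printed because they belong to genes with opposite patterns below: Sparc and Mertk were high in the microglial gate, and Thbs4 and Gpc4 were near 0 there. Each run is the 250 bases before the start site, 5′ to 3′ on the strand of the gene, from RefSeq on GRCm38.p6. Capitals mark letters GAGGAA (PU.1 core), TTGGC (NFI half-site) or GGGCGG (Sp1 GC box) on either strand, and the AP-1 letters TGANTCA were searched too. No match overlapped another.
Sparc (chr11:55420081-55420330, minus strand): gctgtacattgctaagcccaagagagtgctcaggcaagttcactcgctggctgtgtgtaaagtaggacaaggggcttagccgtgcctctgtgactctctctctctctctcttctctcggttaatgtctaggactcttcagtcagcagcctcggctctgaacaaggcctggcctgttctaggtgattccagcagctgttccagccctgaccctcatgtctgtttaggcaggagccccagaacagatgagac
Mertk (chr2:128698665-128698914, plus strand): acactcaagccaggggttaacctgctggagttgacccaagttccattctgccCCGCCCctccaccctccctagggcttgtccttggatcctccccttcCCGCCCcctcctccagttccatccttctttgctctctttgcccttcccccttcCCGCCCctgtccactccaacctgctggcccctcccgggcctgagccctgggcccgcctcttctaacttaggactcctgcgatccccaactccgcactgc
Thbs4 (chr13:92794819-92795068, minus strand): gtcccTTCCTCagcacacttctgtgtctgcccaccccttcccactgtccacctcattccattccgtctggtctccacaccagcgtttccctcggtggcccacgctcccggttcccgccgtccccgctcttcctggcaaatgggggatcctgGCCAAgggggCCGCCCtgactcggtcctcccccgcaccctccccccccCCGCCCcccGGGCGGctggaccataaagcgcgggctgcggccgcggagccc
Gpc4 (chrX:52164924-52165173, minus strand): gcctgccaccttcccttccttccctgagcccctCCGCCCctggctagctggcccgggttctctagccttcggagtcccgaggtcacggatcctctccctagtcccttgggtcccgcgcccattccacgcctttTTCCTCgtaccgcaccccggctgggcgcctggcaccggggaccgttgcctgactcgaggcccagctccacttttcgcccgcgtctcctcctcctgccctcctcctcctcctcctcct

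The Sparc window held none of the 4 motifs. The Mertk window held GGGCGG at 198, 152 and 99 bases before the start. The Thbs4 window held GAGGAA at 245, TTGGC at 99 and GGGCGG at 89, 51 and 42 bases before the start, and the Gpc4 window held GAGGAA at 117 and GGGCGG at 217. Among 27025 promoter windows of the same length, GAGGAA was present in 23.1%, TGANTCA in 6.87%, TTGGC in 41.9% and GGGCGG in 32.9%. These matches describe letters in a window and were not tested for binding. GC content was 54.0% in the Sparc window, 63.6% in Mertk, 70.8% in Thbs4 and 68.4% in Gpc4.

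The antibody-sorted libraries carried the markers of their labels, and in the virus-labelled libraries glial markers stood far above neuronal ones. In CPM, the count of a gene scaled to a common library total, the summed level of 9 astrocyte markers, among them Aqp4 and Slc1a2, was 37510 to 52100 in astrocytes, 14040 to 26300 in CaMKII positive libraries, 492 to 1484 in double-positive libraries and 199 to 358 in microglia. That of 7 microglia markers, among them Csf1r and Cx3cr1, was 18640 to 29860 in microglia, 15110 to 29470 in double-positive libraries, 390.0 to 1704 in CaMKII positive libraries and 44.1 to 150.4 in astrocytes. That of 6 border macrophage markers, among them Mrc1 and Cd163, was 83.6 to 507 in microglia and 0 to 2.72 in astrocytes. In double-positive libraries it was 78.6 to 329, and in CaMKII positive libraries 1.59 to 92.1. That of 7 endothelial markers was 3816 to 10790 in CaMKII positive libraries and 151 to 1442 in astrocytes. Pan-neuronal markers (5 genes, such as Snap25 and Rbfox3) summed to 20.2 to 134 CPM in CaMKII positive libraries, with a median of 66.9, and to 5.79 to 144 in astrocytes, with a median of 21.2 and a highest value of 84.3 without sham mouse 13. In double-positive libraries they summed to 5.13 to 28.3 CPM (median 12.2) and in microglia to 3.04 to 11.2 (median 5.99). The 4 inhibitory markers summed to a mean of 1.69 ± 0.861 CPM in double-positive libraries (SD, n = 16), 0.802 ± 0.383 in microglia (n = 15), 5.26 ± 3.10 in astrocytes (n = 17) and 9.12 ± 5.25 in CaMKII positive libraries (n = 10). Of the 4, Gad1, Gad2 and Dlx1 had higher means in double-positive libraries than in microglia, and Slc32a1 did not, with 12 of 16 double-positive and 10 of 15 microglia libraries at 0. The virus-labelled libraries are named by their gate below and not as neurons. Libraries that stood apart numbered 3 by markers of other cells, CaMKII sham mouse 8 (oligodendrocyte and fibroblast markers), double-positive burn mouse 10 (endothelial and fibroblast markers) and astrocyte sham mouse 13 (excitatory neuron markers), and the calls of members that changed without one of them are given below.

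The 4 populations were first compared with each other to place each member in its cells. Thbs4, Gpc4, Gpc6, Chrdl1 and Megf10 were present in every astrocyte library and had means under 1 CPM in microglia, Sparcl1 was far higher in astrocytes than in microglia, Sparc and Thbs1 were higher in microglia, and Mertk and Thbs2 differed by less than 2-fold between them. A gene was called at a change of 2-fold or more with an adjusted p no higher than 0.05, from the quasi-likelihood test of edgeR and the Benjamini-Hochberg method across every gene tested. Between astrocytes and microglia 8 of 10 members were called, against 54.2% of all genes tested, 6 of them higher in astrocytes (32.4% of all genes) and 2 lower (21.8%). In bulk libraries fewer cells of a type and less RNA per cell cannot be told apart. Because the libraries of a population were separate mice, the p-values measure the spread between animals. The same mice gave libraries to several populations, and the main fits between populations had no mouse term. Their p-values thus treat paired libraries as independent, and counts with mouse as a replicate block are given below.

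**Figure D1:**
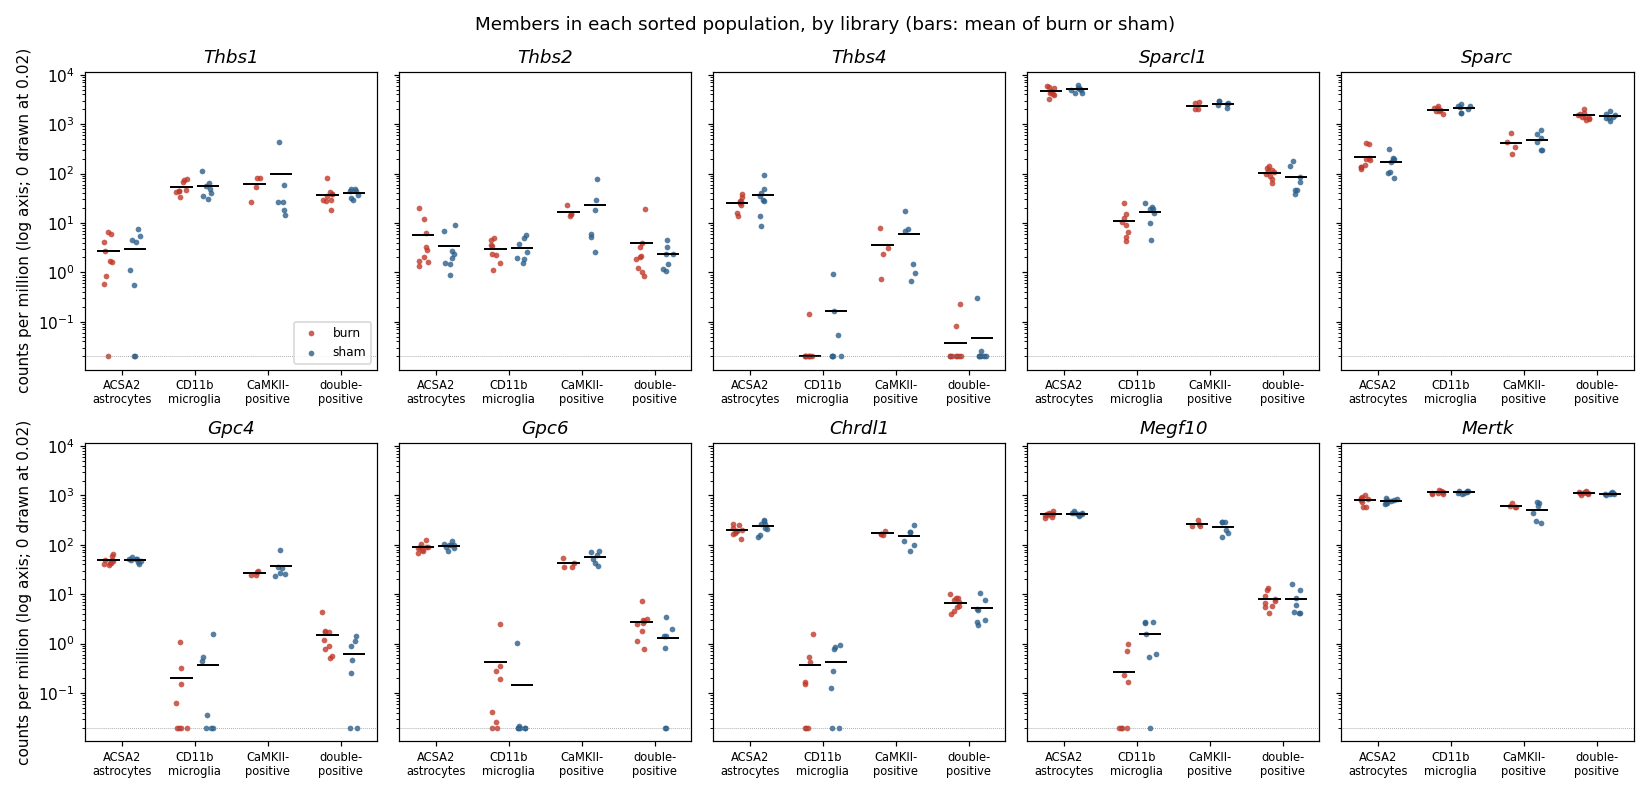
CPM (log axis) of each member in every kept library, by sorted population and by burn (red) or sham (blue), with bars at the group means and libraries at 0 drawn at 0.02. Sparcl1, Gpc4, Gpc6, Chrdl1 and Megf10 fall from astrocytes to microglia, Sparc and Thbs1 rise, and burn and sham points overlap in every panel.

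Thbs1, a secreted thrombospondin that binds the calcium channel subunit Cacna2d1 at synapses, was the lowest member per exon length in astrocytes, at 0.46 CPM per kb. Its lowest, median and highest levels over 17 astrocyte libraries were 0, 1.67 and 7.70 CPM, with 3 libraries at 0, and a count of 0 in an astrocyte library allows a level of up to 0.0628 to 0.164 CPM, depending on its total (3 counts, counting error only). In 15 microglia libraries they were 30.8, 45.4 and 112 CPM, so the populations did not overlap, and astrocytes were lower by a log2 fold change (log2FC) of −4.32 ± 0.43 (SE, edgeR adjusted p = 8.3e-11). In CaMKII positive libraries Thbs1 stood at 14.6, 40.5 and 433 CPM over 10 libraries, and the highest was that of sham mouse 8. The other 9 reached at most 82.5 CPM. Double-positive libraries held 18.5, 37.8 and 79.9 CPM. Thbs1 did not differ past the threshold between CaMKII positive and double-positive libraries (log2FC 0.30 ± 0.34, edgeR adjusted p = 0.46), and that estimate was −0.05 ± 0.26 without mouse 8. Of the exon bases of Thbs1, 3.43% overlap Gm29233 on the opposite strand, and whether the counting used strand is not given in the sources used here.

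Thbs2, its close relative, was the next lowest there, at 0.661 CPM per kb. Its median was 2.41 CPM in astrocytes (0.896 to 20.4), 2.09 in double-positive libraries (0.847 to 18.7) and 15.2 in CaMKII positive libraries (2.53 to 78.8), and its mean in microglia was 3.05 ± 1.42 CPM (SD, n = 15). Levels in astrocytes and microglia overlapped and did not differ past the threshold (log2FC 0.55 ± 0.42, edgeR adjusted p = 0.25), although within sequencing batch 3 alone astrocytes were called higher (1.24 ± 0.47, edgeR adjusted p = 0.025). They were called higher than double-positive libraries in batch 3 alone as well (1.76 ± 0.50, edgeR adjusted p = 0.0038). Over all batches that difference was 0.66 ± 0.49, and 0.98 ± 0.41 without double-positive mouse 10 (edgeR adjusted p = 0.032), under 2-fold. Astrocytes were lower than CaMKII positive libraries by a log2FC of −2.02 ± 0.56 (edgeR adjusted p = 0.0061), which was −1.53 ± 0.42 without mouse 8 and lost its call in batch 3 alone (−1.18 ± 0.50, adjusted p = 0.090) and in sham libraries only (−1.86 ± 0.70, adjusted p = 0.081). The Thbs2 level of mouse 8, 78.8 CPM, stood beside a fibroblast marker sum of 324 CPM in that library, against 27.2 to 104 in the other 9 CaMKII positive libraries. The part of those cells in the result was not tested.

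Thbs4, the third thrombospondin of the list, had the opposite distribution. Astrocyte levels were 8.85, 27.9 and 92.0 CPM (lowest, median and highest), and 11 of 15 microglia and 11 of 16 double-positive libraries held no Thbs4 count at all. The highest microglia library was at 0.907 CPM, below the lowest astrocyte library. CaMKII positive burn libraries held 0.728, 2.32, 3.13 and 7.81 CPM, and the 6 sham libraries 0.668 to 17.7 with a median of 4.18. These overlapped the astrocyte range at its lower end only, and astrocytes were higher by a log2FC of 3.05 ± 0.45 (edgeR adjusted p = 2.6e-06), called within batch 3 alone as well (3.02 ± 0.49).

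Sparcl1 and Sparc, an opposing pair of matricellular proteins, exchanged places between astrocytes and microglia. Sparcl1 was the most abundant member per exon length in astrocytes, at 1659 CPM per kb, where it ranged from 3211 through a median of 4987 to 6098 CPM. Microglia held 4.40, 12.8 and 25.7 CPM of Sparcl1, far under the lowest astrocyte library, and astrocytes were higher by a log2FC of 8.69 ± 0.24 (edgeR adjusted p = 3.6e-26). CaMKII positive libraries lay between, at 2016, 2599 and 2986 CPM, without overlap with the astrocytes (log2FC 1.17 ± 0.12, edgeR adjusted p = 4.5e-09). In double-positive libraries Sparcl1 was 38.1, 94.2 and 177 CPM, higher than in microglia by a log2FC of 2.80 ± 0.25 (edgeR adjusted p = 4.1e-10).

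Sparc ran the other way, at 80.4, 186 and 420 CPM in astrocytes and 1622, 2006 and 2599 in microglia. No astrocyte library reached the lowest microglia library, and the log2FC of astrocytes over microglia was −3.38 ± 0.17 (edgeR adjusted p = 1.6e-18). Double-positive libraries held 1180, 1411 and 2047 CPM, under 2-fold below microglia (log2FC −0.52 ± 0.07, edgeR adjusted p = 2.9e-06). CaMKII positive burn libraries held 249.9, 347, 426 and 656 CPM, and the 6 sham libraries 301 to 748 with a median of 472. The astrocyte and CaMKII positive ranges overlapped, and their difference lay at the 2-fold limit (log2FC −1.005 ± 0.20, edgeR adjusted p = 0.00019). It was called under the replicate block (−1.13 ± 0.14), in sham libraries only (−1.23 ± 0.25), by DESeq2 (−1.10 ± 0.21) and under the other scalings and filters run (−1.02 to −1.18), and was not called without CaMKII mouse 8 (−0.93 ± 0.20), without astrocyte mouse 13 (−0.99 ± 0.20), with all deposited libraries (−0.99 ± 0.20) or in batch 3 alone (−0.90 ± 0.23). The endothelial marker sum differed between the same populations, at 698 ± 324 CPM in astrocytes (SD, n = 17) and 5693 ± 2146 in CaMKII positive libraries (n = 10), and its part in the Sparc difference was not tested. Per exon length, Sparcl1 exceeded Sparc in astrocytes (1659 against 51.4 CPM per kb) and fell below it in microglia (4.63 against 540 CPM per kb).

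**Figure D2:**
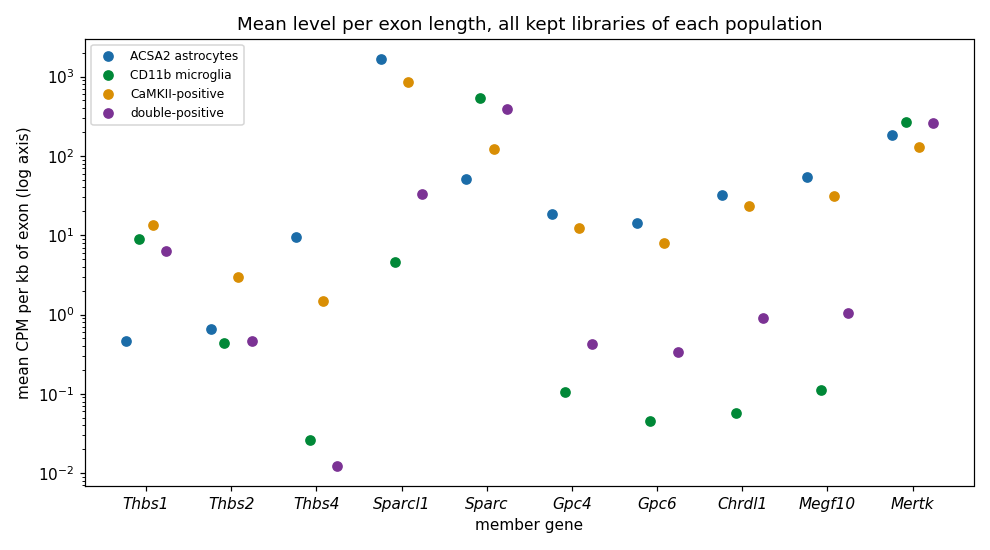
Mean CPM per kilobase of exon (log axis) of each member in the 4 populations over all kept libraries. In astrocytes Sparcl1 (1659) stands above Mertk (182) and Megf10 (54.5), and in microglia Sparc (540) and Mertk (266) stand above the other members.

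Both glypicans, heparan sulphate proteoglycans tied to the membrane by a lipid anchor, were steady in astrocytes and nearly absent from microglia. Gpc4 was 39.5, 49.2 and 65.9 CPM in astrocytes, and Gpc6 was 67.0, 90.1 and 123 CPM. In microglia the mean of Gpc4 was 0.280 CPM and that of Gpc6 was 0.291, each with 7 of 15 libraries at 0, and both comparisons were called (edgeR adjusted p = 1.8e-17 and 2.5e-18). DESeq2 gave no adjusted p for Gpc6 between astrocytes and microglia and called 7 of 10 members (14214 of 30983 genes). Levels under 1 CPM are given here without a fold. CaMKII positive libraries held 36.2 to 75.3 CPM of Gpc6, overlapping the astrocytes. Gpc4 ran there from 22.8 to 77.8 CPM, and only sham mouse 8, at 77.8, reached the astrocyte range, with the other 9 libraries at 35.8 or less. Gpc6 was just past the 2-fold limit there (log2FC 1.03 ± 0.12, edgeR adjusted p = 8.5e-08) and Gpc4 was not (0.79 ± 0.14, adjusted p = 2.8e-05, and 0.89 ± 0.11 without mouse 8). The Gpc6 call was lost under 8 alternatives, among them the one without mouse 8 (0.94 ± 0.12) and sham libraries only (0.84 ± 0.17).

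Chrdl1, a secreted antagonist of bone morphogenetic proteins, was 130.0, 211 and 324 CPM in astrocytes. In microglia its mean was 0.389 CPM, with 5 of 15 libraries at 0, a called difference (edgeR adjusted p = 4.7e-21). CaMKII positive libraries held 76.3 to 250 CPM and overlapped the astrocytes, and the difference stayed under 2-fold (log2FC 0.53 ± 0.18, edgeR adjusted p = 0.022). Double-positive libraries held 2.40, 5.56 and 10.5 CPM of Chrdl1, above the highest microglia library at 1.60 CPM in every case.

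Megf10, a receptor with EGF-like repeats that astrocytes use to engulf synapses, had the smallest spread for its mean of all members in astrocytes, with 354, 427 and 485 CPM and a mean of 421 ± 36.9 CPM (SD, n = 17). Its microglia mean was 0.854 CPM, with 5 of 15 libraries at 0 (edgeR adjusted p = 9.4e-20). CaMKII positive libraries ran from 142 to 312 CPM, all below the lowest astrocyte library, with a difference just under 2-fold (log2FC 0.94 ± 0.12, edgeR adjusted p = 1.4e-07). In sham libraries only it was called (1.03 ± 0.17, edgeR adjusted p = 0.00037). Double-positive libraries held 4.10 to 16.5 CPM. Unlike Mertk, it was thus near 0 in the microglial gate.

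Mertk, a receptor tyrosine kinase that recognises dying material through the bridging proteins Gas6 and Pros1, was 576, 806 and 1011 CPM in astrocytes and 1050.0, 1153 and 1261 CPM in microglia. The ranges did not meet, yet the difference was under 2-fold (log2FC of astrocytes over microglia −0.48 ± 0.07, edgeR adjusted p = 1.1e-07). Double-positive libraries held 1003, 1121 and 1220 CPM, overlapping microglia (log2FC −0.11 ± 0.04, edgeR adjusted p = 0.060). CaMKII positive libraries were lowest and most spread, at 279.9, 601 and 724 CPM, and were called lower than double-positive libraries (log2FC −1.23 ± 0.13, edgeR adjusted p = 6.5e-09). That call was lost when libraries were scaled by their totals only (−0.97 ± 0.13). Relative to microglia, the mean of Mertk was 68.4% in astrocytes and 96.5% in double-positive libraries.

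Between astrocytes and double-positive libraries 8 of 10 members were called (55.1% of all genes), 6 higher in astrocytes (30.7%) and 2, Sparc and Thbs1, lower (24.3%). Between CaMKII positive and double-positive libraries 9 of 10 were called (45.8% of all genes, 26.4% higher and 19.4% lower), and between CaMKII positive libraries and microglia 9 of 10 (43.5%, 28.3% higher and 15.2% lower). In each, 7 were higher in CaMKII positive libraries and Mertk and Sparc were lower, with Thbs1 the exception in both (log2FC 0.30 ± 0.34 and 0.0039 ± 0.36). Between astrocytes and CaMKII positive libraries 6 of 10 were called (16.2% of all genes), namely Thbs4, Sparcl1 and Gpc6 higher in astrocytes (3.5% of all genes were) and Sparc, Thbs2 and Thbs1 lower (12.7%). In batch 3 alone 3 of 10 were called (13.9% of all genes), Thbs4 and Sparcl1 higher (2.86%) and Thbs1 lower (11.0%). Between double-positive libraries and microglia 4 of 10 were called (7.58% of all genes), Sparcl1, Chrdl1, Megf10 and Gpc6, all higher in the double-positive libraries (5.6%). The Gpc6 call was lost in sham libraries only (edgeR adjusted p = 0.32) and in batch 3 alone (adjusted p = 0.20). With mouse as a replicate block the number of members called was 8 between astrocytes and microglia (46.5% of all genes), 8 between astrocytes and double-positive (48.6%), 9 between CaMKII positive and double-positive (35.5%), 9 between CaMKII positive and microglia (33.3%), 6 between astrocytes and CaMKII positive (11.1%) and 4 between double-positive and microglia (3.88%).

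Those 4 genes were then set beside the astrocyte markers of the same libraries. The 9 astrocyte markers stood at 1.61 to 4.67% of their astrocyte mean in double-positive libraries, with a median of 1.82%. Sparcl1 stood at 1.98%, Megf10 at 1.90%, Gpc4 at 2.27%, Gpc6 at 2.31% and Chrdl1 at 2.80%, and Thbs4 at 0.132%, below all 9 markers. The top of the marker range was Slc1a3 alone, which microglia held at 170.0 CPM on average, and the next marker was S100b at 2.51%, so that Chrdl1 lay above 8 of the 9 markers. In CaMKII positive libraries the markers stood at 45.2 to 65.0% of astrocytes. Sparcl1 (51.8%), Gpc6 (55.0%) and Megf10 (57.7%) fell inside that range, Gpc4 (67.2%), Mertk (70.7%) and Chrdl1 (73.2%) just above it, Sparc (236%), Thbs2 (446%) and Thbs1 (2943%) far above, and Thbs4 (15.8%) far below. Without mouse 8 the markers stood at 44.7 to 62.0%, Gpc4 fell inside that range at 57.0%, Thbs1 was at 1548% and Thbs2 at 307%, and the other members lay on the same side of the range as before.

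**Figure D3:**
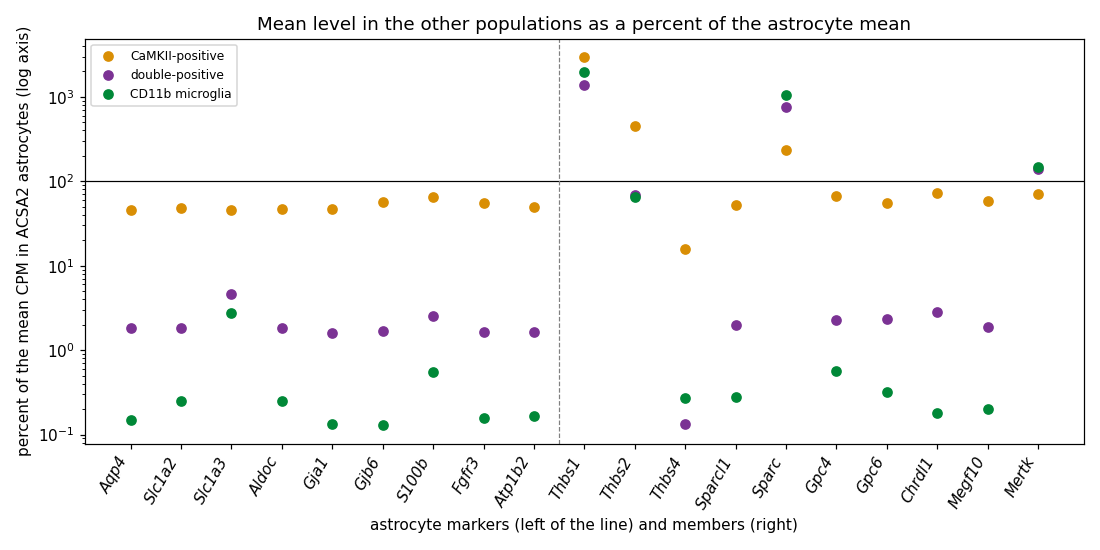
Mean CPM in the other 3 populations as a percent of the astrocyte mean (log axis), for the 9 astrocyte markers left of the dashed line and the 10 members right of it. Sparcl1, Gpc4, Gpc6, Chrdl1 and Megf10 lie in or near the range of the markers, while Thbs4 lies below them in CaMKII positive libraries (15.8%) and Thbs1 and Sparc lie above 100% in all 3 populations.

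Each member was also divided by the astrocyte marker counts of its own library and compared within each mouse, as a description with no test. Sparcl1 per marker count was 0.11 ± 0.31 log2 units higher (SD over 10 mice) in the CaMKII positive than in the astrocyte library of the mouse, and Megf10 0.24 ± 0.14 higher. Chrdl1 was 0.55 ± 0.44 there, higher in 9 of 10 mice, and Mertk 0.46 ± 0.29, higher in 8. Gpc4 was 0.41 ± 0.84, higher in 6, and Gpc6 0.20 ± 0.37, higher in 8. In the double-positive library Megf10 was −0.26 ± 0.31, lower in 14 of 16 mice, and Sparcl1 −0.18 ± 0.31, lower in 12. Gpc4 was −0.62 ± 1.59 there, lower in 11 of 16, Gpc6 −0.67 ± 1.99, lower in 9, and Chrdl1 0.37 ± 0.57, higher in 11. Thbs4 in CaMKII positive libraries was −2.41 ± 1.69, lower in 9 of 10 mice, and in double-positive libraries 11 of 16 held no count of it, so that no difference is given there. Of the 6 members called higher in astrocytes than in microglia, Thbs4 was the one that lay below the range of the markers in both virus-labelled gates. Tnc, a matrix protein of the same synapse factor list named here after its values were seen, was also lower in CaMKII positive libraries, at −2.59 ± 2.26 and in 10 of 10 mice, with 11.4% of its astrocyte mean. Of the 10 genes of its list, 3 were called higher in astrocytes than in CaMKII positive libraries (3.5% of all genes) and 2 lower (12.7%). Bcan and Ncan of that list stood at 54.6% and 57.8% of astrocytes in CaMKII positive libraries. In double-positive libraries Tnc stood at 1.77%, inside the marker range. Astrocytes came from caudal cortex and CaMKII positive cells from motor cortex, so that region and gate cannot be told apart for Thbs4 or Tnc.

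Burn was then compared with sham within each population, with batch as a covariate, to ask whether any member carried a lasting change. None was called in astrocytes, microglia, CaMKII positive or double-positive libraries (0 of 10 in each, against 0.0% of all genes tested in each). At an unadjusted p under 0.05, 2 members passed in astrocytes, 1 in microglia and 0 in the others, against 2984 of 27930, 2036 of 26079, 1096 of 28107 and 1872 of 26707 genes. DESeq2 called 0 members in each population and 27, 80, 3 and 2 genes. Burn and sham ranges overlapped for 10 of 10 members in all 4 populations, and overlap was not counted over all genes.

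In astrocytes the thrombospondins ranged widely among the animals of each treatment. Thbs1 was 0, 1.67 and 6.45 CPM after burn and 0, 2.62 and 7.70 after sham (lowest, median, highest). Thbs2 was 1.33, 2.81 and 20.4 after burn, with a mean of 5.76 ± 6.51 (SD, n = 9), and 3.36 ± 2.94 after sham (n = 8), with a median of 2.17 (log2FC 0.89 ± 0.48, edgeR adjusted p = 0.52). Thbs4 was 13.9, 27.1 and 38.8 after burn and 8.85, 31.8 and 92.0 after sham (−0.33 ± 0.29, edgeR adjusted p = 0.78). The highest Thbs4 value was that of sham mouse 19, and the estimate was −0.07 ± 0.25 without it and −0.78 ± 0.24 in batch 3 alone (edgeR adjusted p = 0.47).

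Sparc and Chrdl1 were the members with an unadjusted p under 0.05 in astrocytes, and neither passed the adjustment. Sparc was 123, 186 and 420 CPM after burn (mean 216 ± 112, SD, n = 9) and 80.4, 178 and 316 after sham (171 ± 75.4, n = 8), with a log2FC of 0.43 ± 0.19 (edgeR, unadjusted p = 0.034, adjusted p = 0.46). In batch 3 alone it was 0.32 ± 0.24. The endothelial marker sum of the same libraries was 502 to 1442 CPM after burn (median 718) and 151 to 833 after sham (median 584), with overlap, and its part in the Sparc values was not tested. Chrdl1 was 130.0, 188 and 266 CPM after burn and 146, 241 and 324 after sham, with a log2FC of −0.33 ± 0.14 (edgeR, unadjusted p = 0.026, adjusted p = 0.46), and of −0.15 ± 0.16 in batch 3 alone.

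The other astrocyte members were estimated more closely and differed less. Sparcl1 was 3211, 4449 and 6030 CPM after burn and 4327, 5041 and 6098 after sham (log2FC −0.15 ± 0.13). Megf10 was 354, 412 and 485 CPM after burn and 379, 433 and 485 after sham (−0.10 ± 0.09), and Mertk 576, 841 and 1011 after burn and 658, 780.3 and 883 after sham (−0.01 ± 0.11). Burn and sham values of these receptors lay on top of each other. Gpc4 (−0.04 ± 0.12) and Gpc6 (−0.14 ± 0.11) did not pass the test either, and edgeR adjusted p of these 5 genes ran from 0.76 to 0.995.

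**Figure D4:**
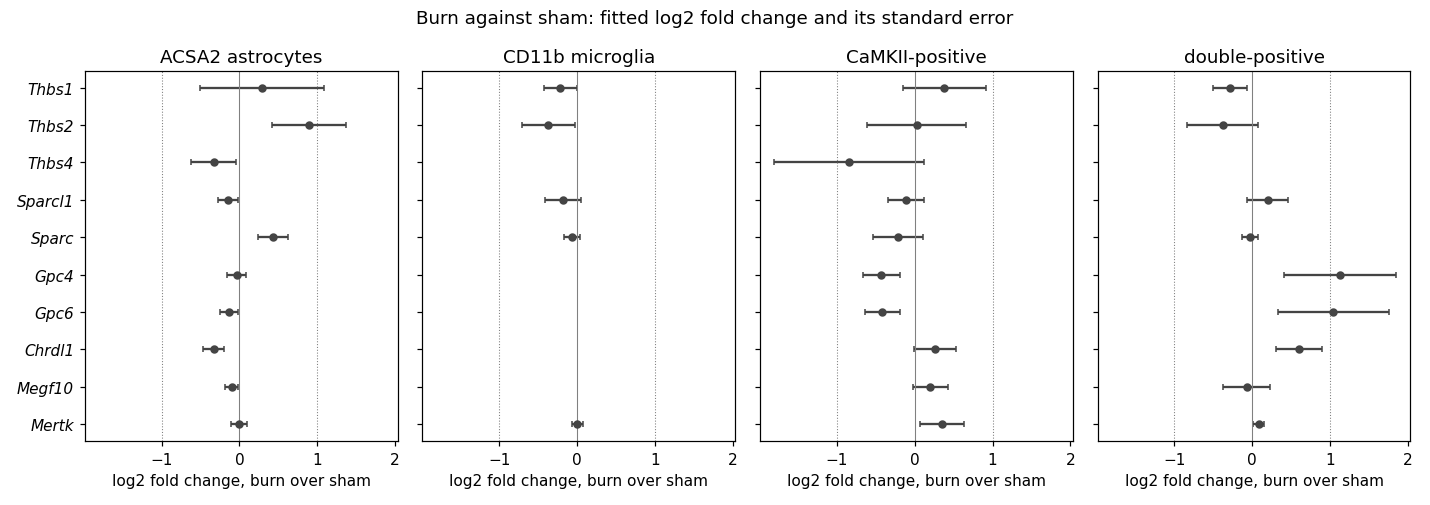
Fitted log2 fold change of burn over sham with its standard error for each member in the 4 populations, with dotted lines at 2-fold, leaving out members with a mean under 1 CPM. No member was called, and in astrocytes the estimates of Sparc (0.43) and Chrdl1 (−0.33) lie within the 2-fold lines.

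In microglia Thbs1 was 32.8, 44.5 and 77.6 CPM after burn and 30.8, 48.8 and 112 after sham (log2FC −0.21 ± 0.21, edgeR adjusted p = 0.96), and Sparc was 1622, 1952 and 2286 after burn and 1683, 2251 and 2599 after sham (−0.07 ± 0.11). Mertk was 1050.0, 1148 and 1261 CPM after burn and 1070.0, 1153 and 1226 after sham, the smallest fitted change of the members in microglia (0.0033 ± 0.07, edgeR adjusted p = 1.0). The burn and sham ranges of all 3 genes overlapped. Megf10, near 0 in these libraries, had an unadjusted p under 0.05, with a mean of 0.260 CPM after burn (4 of 8 libraries at 0) and 1.53 after sham (1 of 7 at 0), and did not pass the adjustment (edgeR adjusted p = 0.64).

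In CaMKII positive libraries Sparcl1 was 2016, 2045, 2665 and 2821 CPM after burn and 2150.0 to 2986 after sham (log2FC −0.11 ± 0.23). Thbs1 was 26.8, 54.2, 81.7 and 82.5 CPM after burn, and 14.6, 26.5 and 433 after sham, with means of 61.3 after burn and 96.1 after sham, or 28.8 after sham without mouse 8. The fitted log2FC was 0.38 ± 0.53 and 0.94 ± 0.41 without mouse 8, and it turned to −0.64 ± 0.85 with no batch term and to −0.11 ± 0.52 without burn mouse 20 (edgeR adjusted p = 1.0 in all 4). Without mouse 8, burn mouse 2 was the only library of batch 1, so that estimate rested on batch 3 (0.94 ± 0.43 in batch 3 alone). Fitted changes of the 10 members ran from −0.84 ± 0.96 (Thbs4) to 0.38 ± 0.53 (Thbs1). In double-positive libraries Gpc4 (1.13 ± 0.72) and Gpc6 (1.04 ± 0.72) had the widest estimates of those with a fold, at medians of 0.900 and 1.88 CPM, and Chrdl1 was 6.77 ± 2.03 CPM after burn (SD, n = 9) and 5.16 ± 2.99 after sham (n = 7), with a log2FC of 0.60 ± 0.29 (edgeR adjusted p = 0.71). Mertk was 1025 to 1220 CPM after burn and 1003 to 1183 after sham there (0.08 ± 0.07).

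Whether burn acted differently in a pair of populations was tested as an interaction. No member was called for astrocytes against microglia (0 of 10, against 0.00323% of all genes) or for CaMKII positive against double-positive libraries (0 of 10, against 0.0228%). The interaction with the smallest p was that of Megf10 in astrocytes against microglia (log2FC difference 2.56 ± 0.65, edgeR, unadjusted p = 0.00040, adjusted p = 0.21), and it rests on microglia levels near 0. At an unadjusted p under 0.05 that was 1 of 10 members, against 3037 of 30983 genes, and for CaMKII positive against double-positive libraries 1 of 10, against 2078 of 30693 genes. The latter was Gpc4 (−1.56 ± 0.72, edgeR adjusted p = 0.70). Each count stayed at 0 under the 4 alternatives run for it, the replicate block among them.

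The libraries were sequenced in 3 batches, and some members differed by batch with treatment as a covariate. Batch was unevenly spread over treatment. Batches 1, 2 and 3 held 3, 1 and 5 burn and 1, 2 and 5 sham libraries of astrocytes. In microglia they held 3, 0 and 5 burn and 1, 1 and 5 sham libraries, and in CaMKII positive cells 1, 0 and 3 and 1, 0 and 5. Double-positive libraries numbered 3, 1 and 5 after burn and 0, 2 and 5 after sham, so that batch 1 held burn only there. In astrocytes Sparc was 137, 200.4 and 420 CPM in the 10 libraries of batch 3 and 80.4, 123 and 196 in the 7 of batches 1 and 2, with a log2FC of 0.89 ± 0.19 (edgeR adjusted p = 0.019), under 2-fold, and 0.79 ± 0.21 without sham mouse 13 (adjusted p = 0.093). The ranges overlapped, and the median endothelial marker sum was 683 CPM in batch 3 and 708 in the others. Thbs1 was 0.912 CPM on average in batches 1 and 2 and 4.11 in batch 3 (2.24 ± 0.88, edgeR adjusted p = 0.18), and Chrdl1 was 253 and 191 CPM (−0.48 ± 0.13, edgeR adjusted p = 0.061). No astrocyte member was called (0 of 10, against 1.03% of all genes, 0.641% higher and 0.39% lower in batch 3), 7 had an unadjusted p under 0.05 (4777 of 27930 genes did), and DESeq2 called 1, Thbs2 (1.49 ± 0.47), among 619 of 27930 genes.

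**Figure D5:**
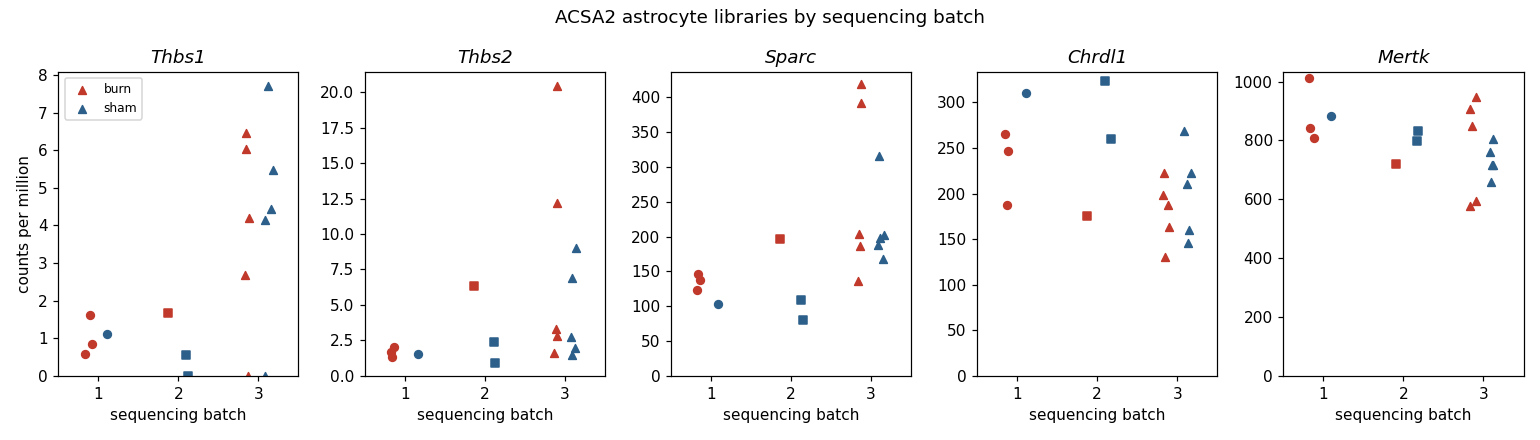
CPM of 5 members in every kept astrocyte library by sequencing batch, burn in red and sham in blue, with marker shapes by batch. Sparc reaches 420 CPM in batch 3 and at most 196 in batches 1 and 2, and Chrdl1 is lower on average in batch 3 (191 against 253 CPM).

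In microglia 0 of 10 members differed by batch (0.399% of all genes did, 0.391% higher and 0.00767% lower in batch 3), with 2 at an unadjusted p under 0.05 (3837 of 26079 genes) and 0 by DESeq2 (424 genes). In CaMKII positive libraries 0 of 10 were called (0.0% of all genes), and 3 had an unadjusted p under 0.05 (1509 of 28107 genes). DESeq2 called 118 genes and 1 member, Thbs1, at a log2FC of −2.89 ± 0.80 that became −0.58 ± 0.64 in edgeR without mouse 8. Batch 1 held 1 burn and 1 sham library there and batch 2 held 0, so without mouse 8 batch 3 stood against burn mouse 2 alone. In double-positive libraries 1 of 10 was called (1.12% of all genes, 0.966% lower and 0.15% higher in batch 3). It was Thbs2, at 0.847, 1.36 and 4.56 CPM in batch 3 and 2.12, 3.23 and 18.7 in batches 1 and 2 (−1.57 ± 0.42, edgeR adjusted p = 0.031). Without burn mouse 10 of batch 1, which held 18.7 CPM of Thbs2 and an endothelial marker sum of 640 CPM, it was not called (−0.86 ± 0.40, edgeR adjusted p = 0.28). At an unadjusted p under 0.05, 6 of 10 members passed in double-positive libraries (5620 of 26707 genes). DESeq2 called 1 there, Thbs2 (−1.55 ± 0.43), among 279 genes.

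How the members varied together was examined in the 10 astrocyte libraries of batch 3 over 45 pairs. No pair passed a Benjamini-Hochberg adjustment over the 45 (lowest adjusted p = 0.21, permutation test), and 7 had an unadjusted p under 0.05. Sparc and Chrdl1 ran in opposite directions (Pearson's r = −0.71, permutation p = 0.024, and Spearman's rho = −0.58, permutation p = 0.089, n = 10), with r = −0.56 without the 2 libraries farthest from the median of Sparc. Sparc and Sparcl1 ran together (r = 0.78, permutation p = 0.0090, and rho = 0.75, permutation p = 0.017), with r = 0.76 without 2 libraries. The other pairs under 0.05 are given with r and then r without 2 libraries. They were Thbs2 with Sparc (0.77, 0.36), Sparc with Mertk (−0.74, −0.36) and Thbs2 with Chrdl1 (−0.71, −0.62). Thbs2 with Mertk (−0.70, −0.33) and Thbs1 with Chrdl1 (−0.67, −0.19) were the rest. Over all 17 astrocyte libraries 11 of 45 pairs passed the adjustment, 6 positive and 5 negative, and these libraries also differ by batch and treatment. The Sparc and Chrdl1 pair was then at r = −0.80 (permutation p = 0.00013, rho = −0.75, permutation p = 0.00081), with r = −0.76 without 2 libraries, and the Sparc and Sparcl1 pair did not pass (r = 0.41, permutation p = 0.11, adjusted p = 0.19).

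The other genes of the same pathways were read from 4 lists of 61 genes. None of the 18 family relatives (17 tested in microglia and double-positive libraries), 18 receptors and partners, 15 engulfment genes and 10 other astrocyte synapse factors was called between burn and sham in any population (0.0% of all genes), and in astrocytes 1, 0, 1 and 1 of them had an unadjusted p under 0.05, where 2984 of 27930 genes did. DESeq2 called 0 of them in each population. Between astrocytes and microglia, 14 of 18 relatives were called higher in astrocytes (32.4% of all genes) and 1 lower (21.8%), and their median log2FC was 4.38, against 0.28 over all genes. The relative Gpc5 was 302 ± 40.0 CPM in astrocytes (SD, n = 17) and 1.14 ± 1.17 in microglia (n = 15). Axl, a relative of Mertk, was 309 ± 30.1 CPM in astrocytes and 28.8 ± 11.3 in microglia (log2FC 3.55 ± 0.15, edgeR adjusted p = 1.5e-20). Spock2, a proteoglycan of the Sparc family, was 3447 ± 1552 CPM in CaMKII positive libraries (n = 10) and 476 ± 182 in astrocytes (log2FC of astrocytes −2.64 ± 0.23, edgeR adjusted p = 1.8e-10), in the same direction as Sparc.

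Of the 18 receptors and partners, 13 were called higher in astrocytes than in microglia (32.4% of all genes) and 2 lower (21.8%). Lrp1, an endocytic receptor of thrombospondins, was 1720.0 ± 195 CPM in astrocytes (SD, n = 17) and 2912 ± 493 in microglia (n = 15). Of the 15 engulfment genes, 4 were higher in astrocytes and 6 lower, where 32.4% and 21.8% of all genes were. Mfge8, a bridging protein for integrin-mediated uptake, was 2991 ± 494 CPM in astrocytes and 16.8 ± 3.85 in microglia (log2FC 7.55 ± 0.14, edgeR adjusted p = 7.2e-31), and Abca1 was 683 ± 79.8 and 1140.0 ± 186. Of the 10 other synapse factors, 8 were higher in astrocytes (32.4% of all genes) and 1 lower (21.8%), with Bcan at 2472 ± 260.1 and Ncan at 1040.0 ± 147 CPM in astrocytes and 6.07 ± 4.38 and 2.55 ± 1.60 in microglia. Both are proteoglycans of the extracellular matrix around synapses.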

How the data were processed

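The authors trimmed reads of stranded, ribosomal RNA-depleted libraries with fastp, aligned them with STAR (GRCm39, with mm10 also named in the labels), counted them per gene with GenomicAlignments and deposited raw counts for each population. Whether strand was used in counting is not given in the sources used here. All columns were matched to samples (0 not used), and 52073 of 56980 gene IDs had a symbol. Of 63 libraries, 58 were kept. Mouse 3 (skin ulceration, all populations) and mouse 8 of the double-positive gate (library size) were left out, as in the study. Batches come from the study's sample list.

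Counts were tested with edgeR 4.0.16 in R 4.3.3 (quasi-likelihood, TMM, at least 10 counts in total per gene) with batch and treatment as terms, and with population in the comparisons between populations. Standard errors are the absolute log2FC over the square root of F. CPM used library totals and levels per length the exon bases of GENCODE on GRCm38. DESeq2 1.42.0, other scalings and filters, batch 3 alone, sham libraries only and leaving out each mouse were alternatives, and the tests were checked on simulated counts.

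Libraries of 1 mouse share its number in every population and come from the same animal, so they are paired. The median correlation of their deviations over 12586 genes was 0.029 to 0.14, against −0.012 to 0.039 between other mice of the same batch and treatment. Named were all 10 members and, of each pathway list, up to 4 genes with the highest astrocyte mean, of which 1 is not reported here. The members, lists and alternatives were chosen with earlier results of these data known.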

Additional observations from a re-analysis of the deposited data

Results flagged for a closer look

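Single libraries held values far from the rest of their group in 10 of the 68 groups of 4 to 9 libraries tested (14.7%), where chance gives about 1 in 20. CaMKII sham mouse 8 was high in Thbs1 (433 CPM), Thbs2 (78.8 CPM) and Gpc4 (77.8 CPM), against at most 58.3, 28.7 and 35.8 CPM in the other sham libraries. Double-positive burn mouse 10 was high in Thbs1 (79.9 CPM), Thbs2 (18.7 CPM), Gpc4 (4.44 CPM) and Gpc6 (7.12 CPM). Each of the other outlying values stood in a library of its own, with Thbs1 at 112 CPM in microglia of sham mouse 16, Thbs2 at 22.9 CPM in the CaMKII positive library of burn mouse 20, and Thbs4 at 92.0 CPM in astrocytes of sham mouse 19.

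Mouse 3, a burn mouse left out of the comparisons, was above the highest sham library for 6 values. Thbs1 was 388 CPM in its microglia, against 112 in the highest sham library, and 56.5 CPM in its double-positive library, against 49.1. In its CaMKII positive library Sparcl1 was 3195 CPM (2986), Megf10 422 CPM (290) and Mertk 802 CPM (724), and in its astrocytes Mertk was 1023 CPM (883), with the highest sham value in parentheses. Among members with a mean of at least 1 CPM, 4 values of mouse 3 were below the lowest sham library. Thbs4 was 5.86 CPM in its astrocytes (lowest sham value 8.85), and in its microglia Sparc was 1605 CPM (1683), Mertk 1006 CPM (1070.0) and Sparcl1 4.38 CPM (4.42). How often other genes of mouse 3 lay outside the sham range was not tested.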

How the results depend on the processing

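The count of members called for burn against sham was 0 under all 94 alternatives. Between populations, 62 of 63 alternative counts stayed within 1.5 times, and astrocytes against CaMKII positive libraries gave 3 in batch 3 alone, where 13.9% of all genes were called. With mouse as a replicate block the counts were 8, 6, 8, 9, 9 and 4, as without it, and all genes called fell from 4978 to 3302 for astrocytes against CaMKII positive libraries and from 2179 to 1092 for double-positive libraries against microglia. By batch, DESeq2 called 1 in astrocytes and 1 in CaMKII positive libraries, and 0 were left in double-positive libraries without burn mouse 10. Pairs that vary together were 11 over 17 astrocyte libraries.

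Of 795 alternative burn estimates 745 kept their direction and 50 turned, and of 627 between populations 9 turned, all for changes that were not called. For Thbs1, CaMKII against double-positive libraries gave −0.27 (replicate block), −0.63 (sham only), −0.06 (batch 3 alone) and −0.05 to 0.43 without 1 library, and against microglia −0.43, −0.73, −0.62 and −0.46, and −0.28 with all deposited libraries.

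For burn in CaMKII positive libraries, dropping the batch term gave −0.64 (Thbs1) and −0.46 (Thbs2), all deposited libraries −0.17 (Thbs2) and 0.02 (Sparcl1), and batch 3 alone 0.0016 (Sparc) and −0.001 (Chrdl1). Leaving out 1 library gave −0.11 to 0.94 (Thbs1), −0.31 to 0.54 (Thbs2), −1.54 to 0.11 (Thbs4) and −0.0047 to 0.45 (Chrdl1). In astrocytes Thbs1 was −0.13 with no batch term, −0.16 in batch 3 and −0.17 to 0.50 without 1 library, and Mertk was 0.0088 (all deposited), 0.02 (library size only), 0.03 (no batch term), 0.09 (batch 3) and −0.06 to 0.05. In double-positive libraries, all deposited libraries gave 0.06 (Thbs1), 0.43 (Sparc) and 0.10 (Megf10), no batch term 0.74 (Thbs2), 0.03 (Sparc) and 0.02 (Megf10), and leaving out 1 library −0.09 to 0.06 (Sparc) and −0.17 to 0.38 (Megf10). In microglia Thbs1 was 0.03 with all deposited libraries and −0.38 to 0.06 without 1, Sparc −0.12 to 0.02, and Mertk −0.0073 (all deposited), −0.0077 (DESeq2), −0.0076 (its size factors in edgeR), −0.01 (library size only), −0.0066 (no batch term) and −0.03 to 0.05. The double-positive library of sham mouse 8, included under all deposited libraries, had a count of 0 for every member. The cause of these turns was not tested. Members under 1 CPM are limited by depth, since 3 counts correspond to 0.0223 to 0.225 CPM.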
